A study of Mus musculus with 8 samples.

Results

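The genes described here encode proteins of the spliceosome, the machine that removes introns from messenger RNA precursors, and the hnRNP proteins that coat those precursors. A probe was taken when its symbol in the array's platform annotation starts with Snrp, Sf3a, Sf3b, Srsf, Hnrn, Prpf or Lsm, or is U2af2, Sf1, Rbm39 or Ddx39b; U2af1 was not analysed here. The rule found 103 probes for 63 genes, of 9416 genes tested, and the probe with the highest mean over the 8 arrays stood for each gene. RNA came from the epidermis of wild-type B6129 mice aged 7 to 8 weeks, shaved 3 days before treatment. Mice in the FA groups received 2 µg of fluocinolone acetonide (FA, a potent synthetic glucocorticoid) once on the back skin in 200 µl of acetone, and vehicle mice received acetone without FA. Skin was taken 24 hours later. The 4 groups were female FA, female vehicle, male FA and male vehicle, with 2 animals and 2 Illumina bead arrays each, and all were wild type. With 2 arrays a group, p-values rest on a spread pooled over all 8 arrays.

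Spliceosomes are built from small nuclear RNAs packed with proteins. U1, U2, U4 and U5 carry a ring of Sm proteins, and U6 carries a ring of the related LSm2 to LSm8 proteins. A second ring, LSm1 to LSm7, shares most of these proteins but sits in the cytoplasm, where it promotes decay of messenger RNA. SF3a and SF3b belong to the U2 particle and grip the branch point, PRPF proteins drive the rearrangements of the complex, and SR and hnRNP proteins bind exons and introns and shift splice site choice. The name of the set is wider than the spliceosome for 3 LSm members: Lsm10 belongs to the U7 particle that trims histone messages, Lsm14a to cytoplasmic granules of stored messages, and Lsm12 is not a known spliceosome component.

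Of the 63 members, 51 were detected above background on all 8 arrays, and all values are log2 of the normalized signal, which compares arrays for 1 probe but not probes with each other. Female FA replicate 2 stood apart from the other arrays: its median raw signal was 191, against 99.5 to 109 on the other 7 arrays, and 32.4% of its probes were detected, against 44.5% to 46.9%. It detected 54 of the 63 members, where each other array detected 59 to 62. The known glucocorticoid targets Fkbp5 and Tsc22d3 rose by 4.01 and 2.33 on the log2 scale in FA epidermis. All 8 keratinocyte markers were detected in every group, of which 2 rose and 3 fell. In 5 other marker lists some genes passed as lower, where 11.4% of all genes did so. Of the markers measured, 5 of 5 for Langerhans cells, 5 of 6 for dendritic epidermal T cells, 5 of 7 for proliferating cells, 2 of 7 for fibroblasts and 3 of 4 for the sebaceous gland fell. Skeletal muscle markers did not pass, with summed signals of 10600 to 20550 in male FA against 6299 to 6670 in male vehicle, and 419 to 1016 in female FA against 1529 to 3941 in female vehicle. At most 1 endothelial and 1 melanocyte marker was detected on both arrays of any group. The part of these cells in the results was not tested. In whole epidermis, fewer cells of a type and less RNA per cell cannot be told apart. The summed linear signal of the 7 proliferation genes was 952 and 1159 in female FA epidermis, against 2990 to 3246 in female vehicle, and 731 and 1009 in male FA, against 2909 to 3183 in male vehicle. For the 5 Langerhans cell genes the sums were 2131 to 2382 in female FA against 10410 to 10680 in female vehicle, and 1310 to 2426 in male FA against 9382 to 11350 in male vehicle.

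Genes for the LSm ring and part of the Sm core fell in FA epidermis, while no SR or hnRNP gene passed the test in either direction. Averaged over both sexes, 14 of the 63 members passed an adjusted p of 0.05 in limma, 13 lower and 1 higher in FA epidermis. Over all 9416 genes 20.8% passed, 9.4% higher and 11.4% lower, so the share of members passing (22.2%) was close to that of all genes. The members' median log2 change was -0.15, against -0.02 for all genes. The LSm and Sm or snRNP members held 11 of the 13 genes that fell, 11 of 19 with a median change of -0.60. The other 44 members held 2 that fell and 1 that rose, with a median change of -0.08. This division into 2 blocks was made after the values were seen and has no test. With only probes detected on all 8 arrays, 9 of the 15 hnRNP genes could be tested and 2 passed. All 10 LSm genes could be tested and 6 passed, and over all genes 36.2% passed. All 4 FA arrays lay below all 4 vehicle arrays for 19 members (14.6% of all genes did so) and above them for 5 (11.6% of all genes). Without female FA replicate 2 the count was 16 (25.4%, against 23.4% of all genes), 14 lower and 2 higher; it held all 14 named here and also the SR gene Srsf9 and the branch point gene Sf1. Over the 21 alternatives, at least 1 hnRNP gene passed in 7 (at most 3 genes) and at least 1 SR gene in 9 (at most 2).

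**Figure D1:**
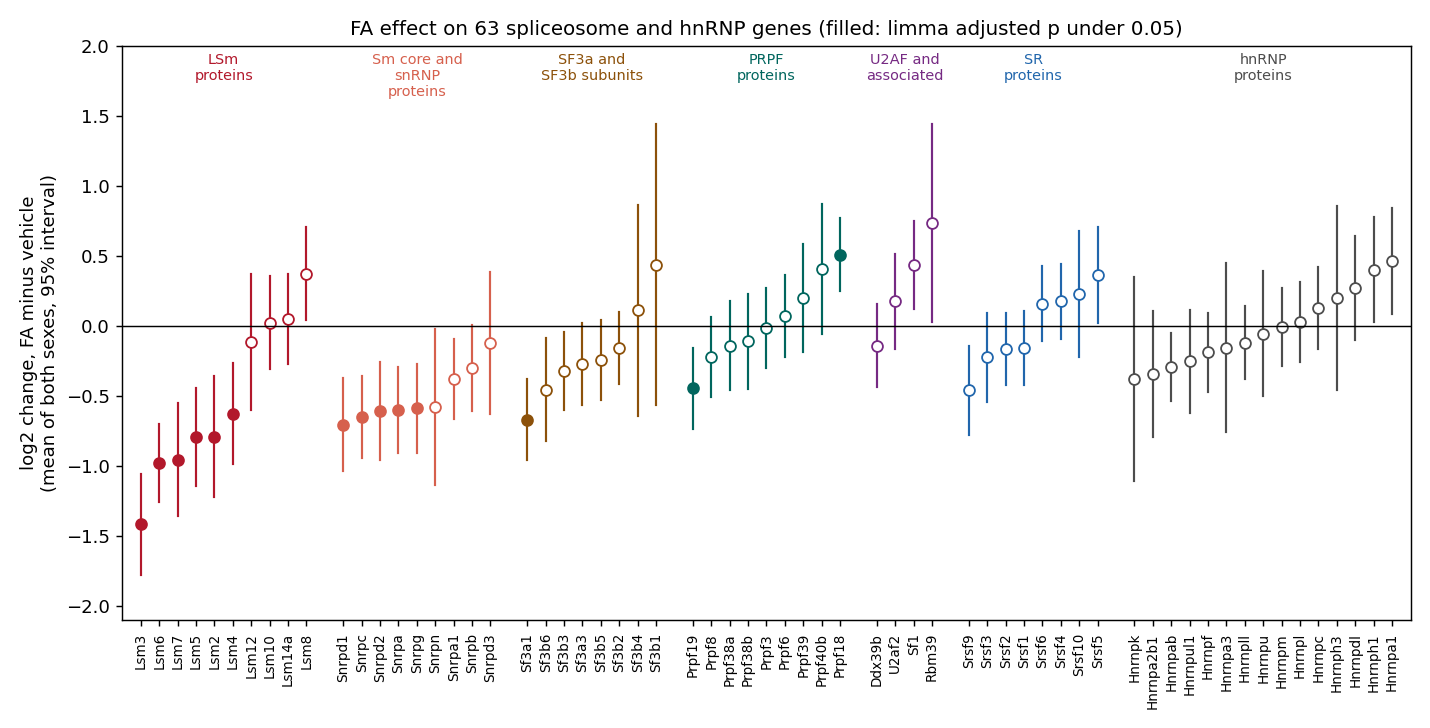
Log2 change in signal, FA minus vehicle, averaged over both sexes, for each of the 63 members by class; bars are 95% intervals of the limma fit and filled points have an adjusted p under 0.05. The filled points lie mostly among the LSm and Sm or snRNP genes, and none are SR or hnRNP genes.

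Of the 7 genes of the LSm2 to LSm8 ring 6 fell, with a median change over the 7 of -0.79. Lsm3, a subunit of both LSm rings, had the largest change of any member in absolute size. Its signal was 7.36 and 7.89 in female FA against 9.12 and 9.11 in female vehicle epidermis, and 7.59 and 7.29 in male FA against 8.72 and 8.85 in male vehicle. The groups did not overlap in either sex, and the mean change was -1.42 ± 0.15 (SE of the fit; 95% interval -1.78 to -1.06), 2.67-fold lower, with a limma adjusted p of 0.00103.

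Lsm6, also shared by both rings, read 8.52 and 8.50 in female FA against 9.32 and 9.05 in female vehicle, and 8.21 and 8.06 in male FA against 9.44 and 9.38 in male vehicle. Its mean change was -0.98 ± 0.12, 1.97-fold lower (adjusted p 0.00165). The FA arrays were low in both sexes, and the male ones lowest. Lsm7, another shared subunit, read 8.13 and 7.53 in female FA against 8.89 and 9.19 in female vehicle, and 7.99 and 8.27 in male FA against 8.72 and 8.92 in male vehicle. Its mean change was -0.95 ± 0.17, 1.94-fold lower (adjusted p 0.00956), with no overlap between FA and vehicle arrays.

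The remaining ring genes that fell were Lsm5, Lsm2 and Lsm4, all subunits of both rings. Lsm5 had signals of 8.64 and 8.71 in female FA against 9.37 and 9.18 in female vehicle, and 8.35 and 7.91 in male FA against 9.29 and 8.94 in male vehicle, a mean change of -0.79 ± 0.15 (adjusted p 0.0112). For Lsm2 the signals were 7.07 and 7.36 in female FA against 7.78 and 7.63 in female vehicle, and 7.21 and 6.79 in male FA against 7.77 and 8.41 in male vehicle. Its mean change was -0.79 ± 0.18 (adjusted p 0.023), and male vehicle replicate 2 was the highest array. Lsm4, the brightest LSm probe, stood at 10.85 and 10.95 in female FA against 11.37 and 11.49 in female vehicle, and at 10.94 and 10.95 in male FA against 11.37 and 11.97 in male vehicle, a mean change of -0.63 ± 0.15 (adjusted p 0.0279). In these 3 genes all FA arrays again lay below all vehicle arrays.

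Lsm8 is the subunit that distinguishes the nuclear U6 ring from the cytoplasmic one, and it did not share this pattern. Its signal was 8.98 and 9.04 in female FA against 8.75 and 8.70 in female vehicle, and 9.39 and 8.91 in male FA against 8.80 and 8.58 in male vehicle. All FA arrays lay above all vehicle arrays, but the mean change of 0.38 ± 0.14 did not pass (adjusted p 0.105). Lsm1, the subunit particular to the cytoplasmic ring, was not analysed here. The 3 LSm genes outside the ring had changes of -0.12 ± 0.21 (Lsm12, the dimmest LSm probe), 0.03 ± 0.14 (Lsm10) and 0.05 ± 0.14 (Lsm14a), with adjusted p of 0.727, 0.918 and 0.83.

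**Figure D2:**
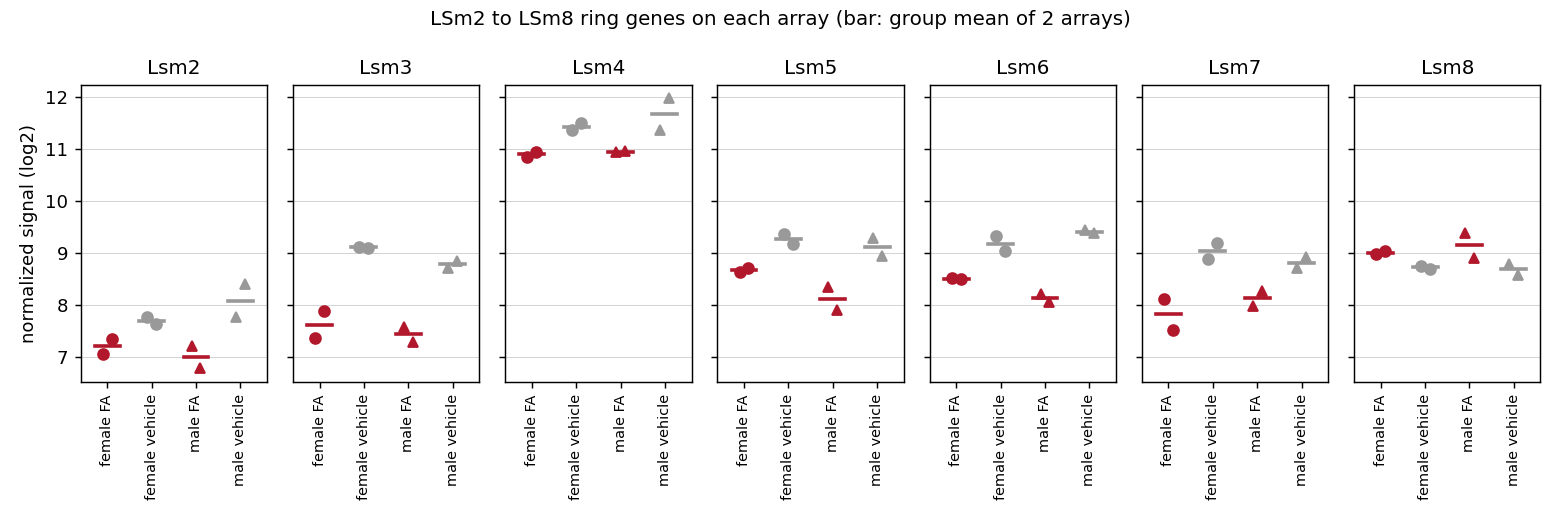
Normalized log2 signal of the 7 LSm ring genes on each of the 8 arrays, FA in red and vehicle in grey, circles for females and triangles for males, with bars at the mean of 2 arrays. In Lsm2 to Lsm7 the FA arrays lie below the vehicle arrays in both sexes, and in Lsm8 they lie above; heights compare arrays within a panel, not genes.

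The windows around the start sites of Lsm3 and Lsm6, the members with the lowest adjusted p, and of Lsm8, the ring gene that did not fall, are shown for comparison. Each runs from 250 bases before to 50 after the start in RefSeq (GRCm38.p6), printed 5′ to 3′ along the gene: Lsm3 at chr6:91515785-91516084 on the plus strand, Lsm6 at chr8:78821103-78821402 on the minus strand and Lsm8 at chr6:18848385-18848684 on the plus strand. Capitals mark the GC box GGGCGG on either strand, a letter match and not a shown binding site.
Lsm3: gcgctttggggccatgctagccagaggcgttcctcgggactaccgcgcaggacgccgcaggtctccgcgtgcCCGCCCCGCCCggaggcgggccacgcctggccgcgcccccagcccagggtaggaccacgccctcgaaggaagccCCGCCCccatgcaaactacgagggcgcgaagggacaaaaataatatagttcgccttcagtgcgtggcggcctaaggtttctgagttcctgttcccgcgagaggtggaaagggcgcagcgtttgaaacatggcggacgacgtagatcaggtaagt
Lsm6: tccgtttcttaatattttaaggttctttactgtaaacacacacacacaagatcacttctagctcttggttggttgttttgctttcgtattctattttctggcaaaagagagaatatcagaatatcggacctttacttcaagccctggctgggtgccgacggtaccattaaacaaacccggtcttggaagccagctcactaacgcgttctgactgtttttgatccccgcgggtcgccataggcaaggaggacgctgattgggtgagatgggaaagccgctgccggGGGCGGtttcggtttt
Lsm8: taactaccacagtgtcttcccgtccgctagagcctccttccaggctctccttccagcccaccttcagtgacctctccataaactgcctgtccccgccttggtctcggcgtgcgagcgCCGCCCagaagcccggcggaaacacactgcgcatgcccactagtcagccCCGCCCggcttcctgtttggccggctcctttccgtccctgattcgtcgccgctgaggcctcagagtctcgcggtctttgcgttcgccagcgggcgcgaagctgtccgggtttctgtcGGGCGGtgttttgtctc
The GC box stood 3 times in the Lsm3 window, 1 time in Lsm6 and 3 times in Lsm8. It was present in all 7 windows of the 5 ring genes that fell and had a window.

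The same search was made over all members with a window. Of the 13 that fell, 11 had a window (15 windows in all), and of the other 50 members 43 had one (60 windows). The GC box was in 66.7% of windows of members that fell and 61.7% of those of the other members, against 35.7% of the 32851 windows of all genes. The ETS motif CCGGAAG was in 33.3% and 23.3%, against 8.86% of all. AAGATGGCG, a YY1 motif, was in 3 of the 15 windows of members that fell (both windows of Lsm7, which overlap, and that of Sf3a1) and in 1.67% of those of the other members, against 1.4% of all. The glucocorticoid receptor motif AGAACA was in 6.67% and 5%, against 19% of all, and its 15-base palindrome (AGAACA, 3 free bases, TGTTCT) was in no member window and in 3 of all windows. The remaining motifs searched were less frequent in members that fell, or near equal. The CCAAT box was in 40% of windows of members that fell and 51.7% of those of the other members, against 37.4% of all. The CRE half-site was in 33.3% and 43.3%, against 20.8%. The E-box was in 13.3% and 11.7%, against 7.15%. The NRF1 site was in 6.67% of both, against 2.71%. The windows also differed in composition. The median number of CG dinucleotides was 20 for members that fell and 26.5 for the other members, against 7 for all RefSeq windows. The median share of G or C was 55.3% and 60.7%, against 52.7%. The part of composition in these motif shares was not tested. Both strands were searched, windows of 1 gene can overlap, and no test was made.

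Of the 9 genes for Sm core and U1 or U2 proteins, 5 fell and none rose, with a median change of -0.59. Snrpd1, which encodes the Sm ring subunit SmD1, had signals of 7.09 and 7.54 in female FA against 8.07 and 8.03 in female vehicle, and 7.64 and 7.38 in male FA against 8.14 and 8.22 in male vehicle. The mean change was -0.70 ± 0.14, 1.63-fold lower (adjusted p 0.014), and its second probe changed by -0.79 ± 0.16. Snrpd2, which encodes SmD2, read 9.82 and 9.57 in female FA against 10.56 and 10.58 in female vehicle, and 9.90 and 10.08 in male FA against 10.08 and 10.57 in male vehicle. It fell by 0.61 on the log2 scale, with an adjusted p of 0.0277, and here 1 male FA array reached the lower male vehicle array. Snrpg, encoding SmG, read 8.94 and 9.20 in female FA against 9.77 and 9.37 in female vehicle, and 9.25 and 9.20 in male FA against 9.90 and 9.91 in male vehicle, a change of -0.59 ± 0.14 (adjusted p 0.0221).

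A pair of genes for proteins of the U1 particle were also among those that fell. Snrpc, encoding U1-C, had signals of 5.52 and 5.14 in female FA against 5.997 and 6.058 in female vehicle, and 5.622 and 5.604 in male FA against 6.22 and 6.20 in male vehicle. It fell by 0.65 on the log2 scale (adjusted p 0.0121), but its probe was dim and was not above background on female FA replicate 2. For Snrpa, encoding U1-A, the signals were 8.14 and 7.98 in female FA against 8.70 and 8.81 in female vehicle, and 8.19 and 7.81 in male FA against 8.46 and 8.53 in male vehicle, a change of -0.60 ± 0.13 (adjusted p 0.0185). A dimmer second Snrpa probe did not share it, with a change of 0.23 ± 0.23 (adjusted p 0.539 over all probes) and a signal of 6.86 on female FA replicate 2, against 5.25 to 5.78 on the other 7 arrays. In the fit over the mean of all probes of each gene, Snrpa changed by -0.19 and did not pass (adjusted p 0.384).

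The Sm and snRNP genes that did not pass were Snrpn, Snrpa1, Snrpb and Snrpd3, and their mean changes were all negative, between -0.58 and -0.12. Snrpa1, encoding the U2 protein U2-A′, had the lowest adjusted p of these, at 0.0661. Snrpn, the dimmest of the class, is an imprinted relative of Snrpb; its signal was 5.46 and 4.42 in female FA against 6.22 and 5.82 in female vehicle, and 6.19 and 5.86 in male FA against 6.06 and 6.15 in male vehicle (change -0.58 ± 0.24, adjusted p 0.129), and it was not above background on female FA replicate 2. Probes for Snrpg, Hnrnpa1 and other members with near-identical copies in the genome may also bind transcripts of those copies, which was not checked here.

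Single genes fell or rose in the 2 classes that act at the branch point and in the catalytic steps. Of the 8 SF3a and SF3b genes 1 passed (12.5%, against 20.8% of all genes). Sf3a1, the scaffold of SF3a, read 7.94 and 8.10 in female FA against 8.51 and 8.62 in female vehicle, and 7.85 and 7.63 in male FA against 8.41 and 8.65 in male vehicle. All FA arrays were below all vehicle arrays, the change was -0.67 ± 0.12 (1.59-fold lower), and the adjusted p was 0.0105. The other 7 SF3a and SF3b genes did not pass, and the changes of 6 of them ran from -0.45 to 0.11. Sf3b6, which contacts the branch point adenosine, was nearest (-0.45 ± 0.16, adjusted p 0.0813). Sf3b2, the brightest of the class, changed by -0.16 ± 0.11, and Sf3b1, the dimmest, was detected on 2 of 8 arrays and is given no change.

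Of the 9 PRPF genes, Prpf18 rose and Prpf19 fell (22.2% passing, against 20.8% of all genes). Prpf18, a factor of the second catalytic step, was the only member of the set to pass as higher in FA epidermis. Its signals were 9.76 and 9.83 in female FA against 9.17 and 9.07 in female vehicle, and 9.79 and 9.72 in male FA against 9.32 and 9.51 in male vehicle. The change was 0.51 ± 0.11, 1.42-fold higher (adjusted p 0.0188). Prpf19, the ubiquitin ligase at the centre of the Prp19 complex and the brightest PRPF probe, read 10.25 and 10.33 in female FA against 10.56 and 10.85 in female vehicle, and 10.30 and 10.12 in male FA against 10.63 and 10.73 in male vehicle. It fell by 0.44 on the log2 scale, close to the threshold (adjusted p 0.0425). Its other probes changed by -0.36 and 0.11, and with the mean of all probes the change was -0.23 (adjusted p 0.209). The other 7 PRPF genes had changes between -0.22 and 0.41, including Prpf8, the scaffold of the active site (-0.22 ± 0.12, adjusted p 0.247), and the dim Prpf39 (0.20 ± 0.16, adjusted p 0.431).

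**Figure D3:**
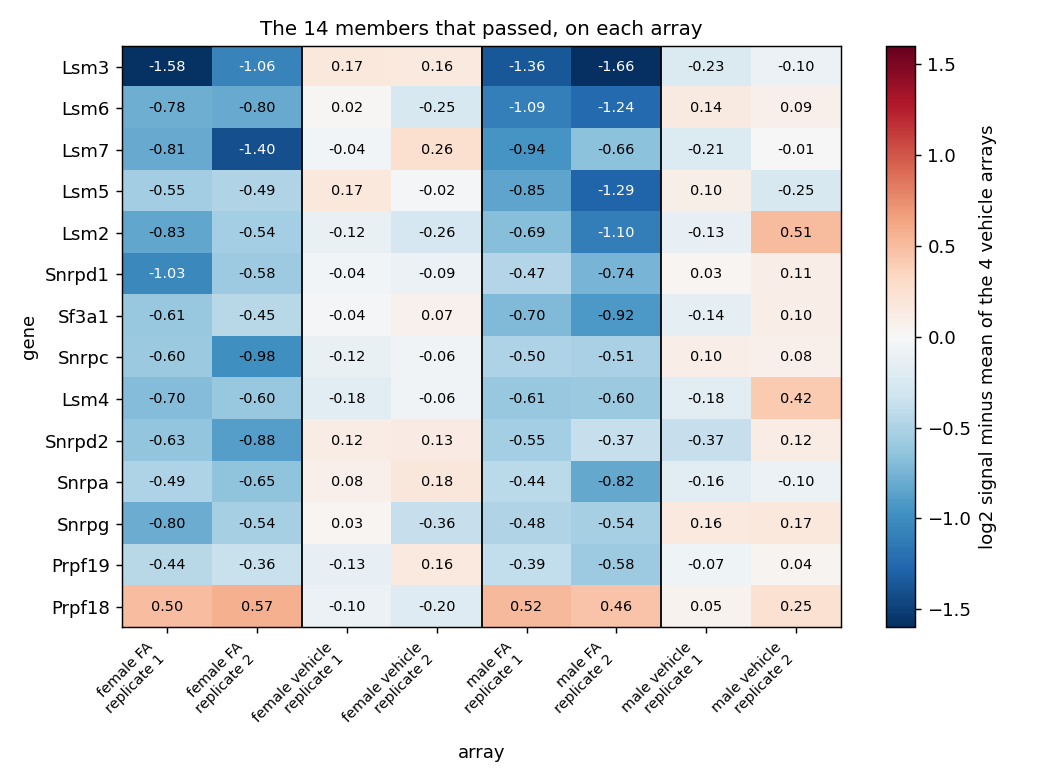
The 14 members that passed in the mean of both sexes, as log2 signal on each array minus the mean of the 4 vehicle arrays, with FA columns left of the vehicle columns of the same sex. The 13 genes that fell are blue on all 4 FA arrays, from -0.36 to -1.66, and Prpf18 is red on all 4.

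None of the 15 hnRNP genes, the 8 SR genes or the 4 genes of U2AF and its associates passed in the mean of both sexes, where 3 (20%), 2 (25%) and 2 (50%) of them had an unadjusted p under 0.05, against 35.4% of all genes. Of those nearest the threshold, Srsf9 passed in 9 of 21 alternatives, Sf1 and Hnrnpab in 5 each, Hnrnpa1 in 3 and Srsf5 in 2. The hnRNP changes had a median of -0.05 and ran from -0.38 (Hnrnpk, not above background on female FA replicate 2) to 0.47. Hnrnpa1, a repressor of splice sites, read 7.85 and 7.75 in female FA against 7.86 and 7.25 in female vehicle, and 8.21 and 8.14 in male FA against 7.34 and 7.63 in male vehicle; the groups overlapped in females (change 0.47 ± 0.16, adjusted p 0.0841). Hnrnpab, an RNA-binding protein and the brightest hnRNP probe, read 12.69 and 12.67 in female FA against 12.92 and 12.91 in female vehicle, and 12.67 and 12.61 in male FA against 12.99 and 13.01 in male vehicle. Its FA arrays all lay below its vehicle arrays, by a mean of 0.29 on the log2 scale, but the adjusted p was 0.0854. Hnrnpa3, the dimmest, was not above background on any FA array. Hnrnpm, Hnrnpl and Hnrnpc are abundant pre-mRNA binding proteins. Their brightest probes had 95% intervals of -0.28 to 0.27, -0.26 to 0.31 and -0.17 to 0.42. For these probes a change of the size seen in Lsm4 or Lsm3 lay outside the interval. A dimmer second Hnrnpc probe changed by -0.41 ± 0.16. The wider intervals of Hnrnpk (-1.11 to 0.35) and Hnrnpa2b1 (-0.79 to 0.11) held a fall of the size seen in Lsm4. Neither was above background on female FA replicate 2.

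The SR genes had a median change of 0.00, from -0.46 to 0.37. Srsf9 was nearest the threshold, with 9.04 and 9.36 in female FA against 9.59 and 9.67 in female vehicle, and 9.08 and 9.25 in male FA against 9.51 and 9.80 in male vehicle. Its FA arrays lay below all vehicle arrays, and the change was -0.46 ± 0.14 (adjusted p 0.0517). Srsf5 differed the other way, by 0.37 ± 0.15 (adjusted p 0.12). Srsf1, the founding member of the family, Srsf2, the brightest of the class, and Srsf3 had changes of -0.15, -0.16 and -0.22, while the dim Srsf10 had 0.23, all with adjusted p of 0.293 or more. In the U2AF class, the branch point binding protein Sf1 was nearest (0.44 ± 0.13, adjusted p 0.0567). Its signals were 7.38 and 7.01 in female FA against 6.79 and 6.85 in female vehicle, and 7.43 and 7.26 in male FA against 6.76 and 6.95 in male vehicle, with no overlap. Rbm39, a relative of U2AF2 and the dimmest of the class, read 5.64 and 7.09 in female FA against 5.46 and 5.61 in female vehicle, and 5.86 and 6.35 in male FA against 5.45 and 5.47 in male vehicle (change 0.73 ± 0.30, adjusted p 0.128). The high array was the female FA replicate 2 that stood apart. U2af2, the large U2AF subunit, and the helicase Ddx39b, the brightest of the class, changed by 0.18 ± 0.14 and -0.14 ± 0.13.

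Within each sex, fewer members passed. In females 5 did, against 10% of all genes: Lsm3, Lsm6, Lsm7 and Snrpd2 fell (4 members, against 5.46% of all genes) and Prpf18 rose (1 member, against 4.57%). In males 5 did, against 8.19% of all genes: Lsm3, Lsm6, Lsm2, Lsm5 and Sf3a1 fell (5 members, against 4.17% of all genes) and none rose (against 4.01%). Lsm3 changed by -1.49 ± 0.22 in females and -1.34 ± 0.22 in males, and Lsm6 by -0.68 ± 0.17 in females and -1.28 ± 0.17 in males (adjusted p 0.0467 in females, 0.00531 in males). The members' median change was -0.18 in females and -0.15 in males.

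No member's FA effect differed between the sexes after adjustment, and 0.0212% of all genes did; 3 members (4.76%) had an unadjusted p under 0.05, against 6.56% of all genes. These were Hnrnpf, Hnrnpa2b1 and Lsm6, named after their values were seen. Hnrnpf and Hnrnpa2b1 were not above background on female FA replicate 2, so no difference between the sexes is given for them. Hnrnpf, which binds G-rich tracts, read 6.41 and 6.56 in male FA against 6.26 and 6.24 in male vehicle, and 5.66 and 5.36 in female FA against 6.15 and 6.08 in female vehicle. Its FA arrays were higher than vehicle in males and lower in females. For Lsm6 the difference in effect (male minus female) was -0.60 ± 0.24 (95% interval -1.16 to -0.05), which did not pass after adjustment. Among vehicle animals no member differed between males and females, against 0.0743% of all genes (0.0319% higher and 0.0425% lower in males), and no member had an unadjusted p under 0.05. Across the 63 members the female and male effects had the same sign in 45 (71.4%, against 69.7% of all genes), with a Pearson r of 0.56 and a Spearman rho of 0.55, against a Pearson r of 0.68 over all genes. These describe genes on the same 8 arrays and are not replicates.

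**Figure D4:**
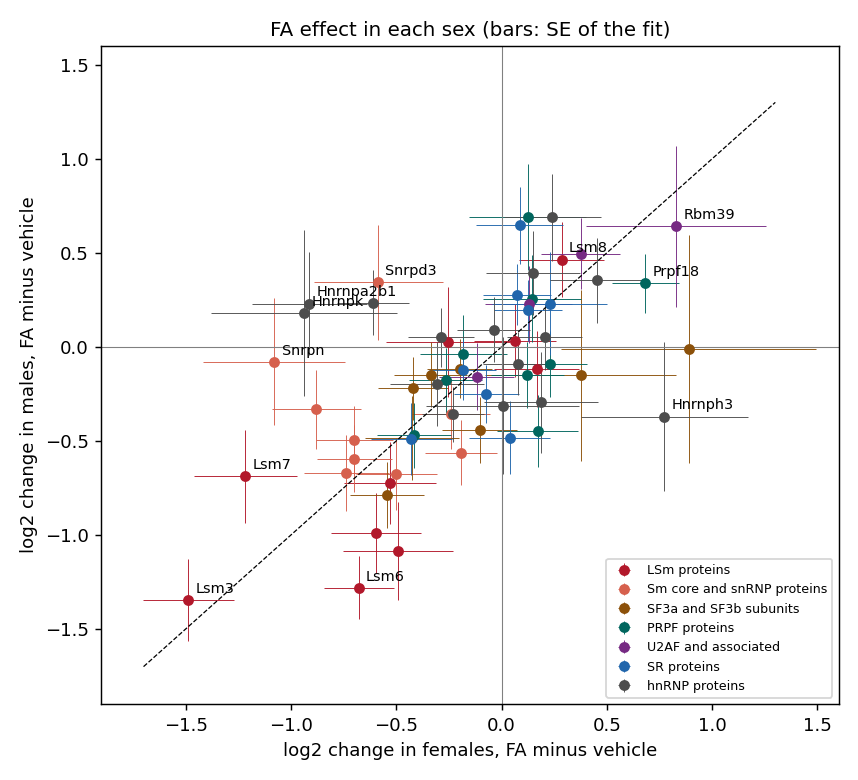
Log2 change, FA minus vehicle, in males (vertical) against females (horizontal) for the 63 members, coloured by class, with bars for the SE of the fit and a dashed line where the sexes are equal. Lsm3 lies at the lower left near the line, and Hnrnpk, Hnrnpa2b1 and Snrpn lie to the left, where the change is negative in females but near 0 or positive in males; these 3 were not above background on female FA replicate 2.

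Of the 63 members, 27 had several probes, and these did not always move together. Lsm2's second probe changed by -0.40 ± 0.15 without passing (adjusted p 0.113). Hnrnph1, which binds G-rich tracts, had 5 probes, all with positive changes, and the third brightest passed at 0.70 ± 0.13 (adjusted p 0.0105 over 13247 probes) where the probe that stood for the gene had 0.40 ± 0.16 (adjusted p 0.129). A second probe of Prpf38a, a tri-snRNP factor needed to activate the complex, fell by 0.56 on the log2 scale with an adjusted p of 0.0475, where the brightest had -0.14 ± 0.14. Srsf10's second probe read 6.46 and 6.42 in male FA against 5.51 and 5.31 in male vehicle, and 5.655 and 5.004 in female FA against 5.93 and 5.77 in female vehicle, a change of 1.03 in males (adjusted p 0.0463). This probe and the second of Prpf38a were not above background on female FA replicate 2. The array does not say which transcript forms each probe reads.

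The calls rested on few animals. Lsm3, Lsm6, Lsm7 and Sf3a1 passed with any 1 array left out. Lsm5 lost its call without female vehicle replicate 1 (adjusted p 0.0525) and Snrpc without female vehicle replicate 2 or male vehicle replicate 1. The other 8 passed without either female FA array, and none of them without female vehicle replicate 1 or without male FA replicate 2, with adjusted p of at most 0.209 over all alternatives for 6 of them, 0.384 for Snrpa and 0.712 for Prpf18. All 14 kept their sign. With 1 array left out, its group keeps 1 array. The count of members passing in the mean of both sexes was then higher without either female FA array and lower without any other array. So was the count over all genes, and within each sex members and all genes also moved together. By sex the count ran from 0 to 16 in females and from 0 to 10 in males. No female call was left without either female vehicle array, and no male call without male FA replicate 2. Without female FA replicate 1, when female FA replicate 2 was the only female FA array, 7 members (11.1%) passed for a difference between the sexes, against 12.1% of all genes.

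Other genes of splicing outside the rule split between higher and lower, in 7 lists chosen by role. Of 143 measured, 10 rose and 8 fell, 12.6% against 20.8% of all genes, with a median change of 0.01. Among 19 other snRNP proteins 1 fell and none rose, 5.26% against 20.8% of all genes. It was Snrnp25, a protein of the minor U11/U12 spliceosome, which fell by 0.91 on the log2 scale (adjusted p 0.00216). Snrnp70, the U1-70K protein, had a change of 0.58 that did not pass (adjusted p 0.0605). The SF3b subunit Phf5a had -0.31 (adjusted p 0.118). In the list of 21 genes for snRNP assembly 1 passed (4.76%, against 20.8% of all genes). This was Clns1a, which fell by 0.83 (adjusted p 0.00522). It encodes pICln, the chaperone that holds Sm proteins before they are loaded on RNA. Ints1, an Integrator subunit that helps process small nuclear RNA, had -0.49 (adjusted p 0.0503) and Gemin2, of the SMN complex, 0.39 (adjusted p 0.098).

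Of the 15 SR kinases and SR-related proteins 3 rose (20%, near the share of all genes) and none fell. Clk4, a kinase of SR proteins, had a change of 0.65 (adjusted p 0.00657), Srpk2, another such kinase, 0.61 (adjusted p 0.00991), and Clasrp, a CLK-associated SR protein, 0.92 (adjusted p 0.0168). Among 20 genes of the Prp19 and catalytic complexes, Srrm2 rose by 0.75 and Isy1 fell by 0.57, and Syf2 did not pass (0.34, adjusted p 0.0788). Of 12 branch point and early complex genes Rbm5 rose by 0.44, while Ccar1 (0.38) and Luc7l (0.32) did not pass. Among 21 exon junction and export genes 3 rose and 2 fell, led by the export adaptor Alyref (-0.65), the export cofactor Nxt1 (-0.63) and the junction core protein Casc3 (0.50). Among 35 regulators of alternative splicing 2 rose and 3 fell, led by Tardbp, which encodes TDP-43 (0.81), Mbnl2 (-0.60) and Ilf2 (-0.57). In each of these lists at most 3 genes passed in 1 direction. The shares passing were 10% in the Prp19 and catalytic list and 8.33% in the branch point list. They were 23.8% for exon junction and export and 14.3% for regulators, against 20.8% of all genes.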

How the data were processed

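The members and the gene lists were chosen with earlier results of these data known. Per the file headers, the deposited unprocessed table gives, per array, the raw bead intensity without correction or scaling, and for 25697 probes also a detection p-value. The authors' deposited matrix holds log2 values for 13247 probes, and the submitters' processing notes name limma without a version. Running limma neqc (offset 16, quantile normalization) in limma 3.58.1 under R 4.3.3 gave the deposited values to within 5e-09. A probe was kept if 2 or more arrays gave it a detection p below 0.05. Of these, 12476 had 1 symbol in the platform annotation and 771 had none. The brightest probe stood for each of 9416 genes. The 4 groups were fitted as 4 means in limma (4 residual and 3.35 prior degrees of freedom), with Benjamini-Hochberg adjustment over all 9416 genes. Errors are SEs of that fit. Probe results were adjusted over 13247 probes in a fit of their own. The labels name no batch or slide. Precision is set by the number of arrays and by how far signals exceed background, since arrays have no read depth.

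Named were all members that passed, and of each class the 2 with the smallest p, the brightest and the dimmest. Members whose probes disagreed and the 3 smallest p of each other list were also named. Some members were named outside this rule, among them Hnrnpm, Hnrnpl, Srsf1, Srsf3, Prpf8, Lsm10 and Lsm14a. Alternatives changed 1 choice at a time: background, normalization, detection filter, probe choice, prior variance, weights, the replicate number as a block, the deposited matrix, and each array left out. Motifs were searched as exact letters on both strands of RefSeq windows (GRCm38.p6), which 54 members had.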

Additional observations from a re-analysis of the deposited data

How the results depend on the processing

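Over 21 alternatives, 1 of them (median scaling over probes detected on all 8 arrays) chosen after seeing the data, Lsm3, Lsm6, Lsm7 and Sf3a1 passed in all. Another of the 21, the deposited matrix, held the main values to within 5e-09, so its result could not differ from the main one. The 14 members that passed kept their sign in all 21, or for Snrpc in 20, since it has no probe detected on all 8 arrays. In the mean of both sexes the count of 14 stayed within 1.5 times except with the replicate block, which gave 8 (12.7%, against 14.6% of all genes), and with arrays left out, which gave 6 to 22; the cause was not tested. In females the 5 (10% of all genes) became 9 with no background correction (16% of all genes) and 14 with median scaling over all probes (13.1%). With probes detected on all 8 arrays 8 of 53 members passed (22.1% of all genes). The count was 2 with array weights (5.37%) and 1 with the replicate block (4.73%). In males the 5 (8.19% of all genes) became 8 with an offset of 50 (11.7% of all genes) and 11 with no background correction (13.7%). Median scaling over all probes gave 0 (4.35%) and the replicate block 2 (4.36%). The count was 10 with an intensity trend (13.1%) and 10 with array weights (15.4%). With probes detected on all 8 arrays 10 of 53 members passed (18.2% of all genes). The difference between the sexes gave 0 to 7 with arrays left out, and the sex difference in vehicle gave 0 throughout. Samples of the same replicate number did not deviate together (r = 0.019 in females, -0.034 in males). The female value includes female FA replicate 2, which stood apart. Why calls were lost with the block was not tested.

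The members' median of -0.15 became -0.084 with no background correction (females -0.11, males -0.11). Median scaling over all probes gave -0.40 (females -0.75, males -0.0093), with the median of all genes moved to -0.19 (females -0.51, males 0.08). Median scaling over probes detected on all 8 arrays gave -0.075 in females and -0.20 in males, where all genes had 0.16 and -0.10. In females the median was -0.10 with probes detected on all 8 arrays and -0.12 with values set to each array's floor. With arrays left out it ran from -0.17 to -0.12 in the mean of both sexes, from -0.19 to -0.14 in females and from -0.16 to -0.075 in males. Median scaling over all probes ended the calls of Snrpc, Prpf19 and Prpf18 (Prpf18 0.24, adjusted p 0.712). A slide block was not run, as the headers name no slides.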
